A study of Mus musculus with 12 samples.

Results

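The interaction of oligomeric Aβ42 and AE1-329 was measured in primary mouse microglia as the amount by which the effect of AE1-329 in the presence of Aβ42 differed from its effect in the absence of Aβ42. It was computed for every gene from all 12 arrays of the series, as the level with both agents minus that with Aβ42 alone, less the difference between AE1-329 alone and vehicle, with the replicate number as a litter block. All 19938 genes that could be named from 1 probe set each were tested, and no gene was chosen by its values. A value of 0 on the log2 scale means that the fold changes of the 2 agents multiplied, which is called additivity here. Positive values lie above additivity and negative values below it.

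The cells were microglia, the resident macrophages of the brain, selected with CD11b magnetic beads from C57BL/6J pups of postnatal day 7 and cultured for 3 days. They received, for 6 h, Aβ42 at 10 µM together with AE1-329 at 100 nM, Aβ42 at 10 µM with the ethanol vehicle (0.001%), AE1-329 at 100 nM with the DMSO vehicle (0.4%), or both vehicles. Each group held 3 arrays, with cells of 3 litters as biological replicates, per the submitters' design text. Cultured cells of young pups from 1 strain, a single dose of each agent and a single time limit what the groups can model.

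AE1-329 is an agonist of EP4, a prostaglandin E2 receptor coupled to the stimulatory G protein, which raises cyclic AMP and activates protein kinase A and the transcription factor CREB. Oligomers of Aβ42, a peptide that forms the plaques seen in Alzheimer's disease, engage pattern recognition receptors of microglia and activate NF-kB, and secreted type I interferon then induces antiviral genes through STAT factors and the interferon-stimulated response element. In macrophages, cyclic AMP is known both to dampen and to raise genes of the inflammatory response, so the agents can oppose or strengthen each other from gene to gene.

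Promoter sequences are shown first for genes that lay below or above additivity and that carry a known response element, because the share of promoters with an interferon element, given next, was not alike in all classes of genes. Each line is 60 bases in the direction of the gene, 5′ to 3′, taken from RefSeq on build GRCm38.p6, with the element in capitals. The first 3 genes were below additivity and hold an interferon element (GAAANNGAA on either strand). Cxcl3 was above additivity and holds a kappaB element (GGANTTTCC), and Nr4a2 was below and holds a half-site of the cyclic AMP response element (TGACG). These lines are examples and do not divide the genes by element. Stat4 and Tarm1, both above additivity, also hold the interferon element. The half-site is also held by Pfkfb3, which was above, and by Irf7, which was below.
Ifit1, chr19:34640779-34640838, plus strand: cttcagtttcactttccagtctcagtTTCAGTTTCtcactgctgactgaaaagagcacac
Cxcl9, chr5:92328221-92328280, minus strand: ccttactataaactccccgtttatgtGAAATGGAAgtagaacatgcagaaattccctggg
Gbp7, chr3:142530258-142530317, plus strand: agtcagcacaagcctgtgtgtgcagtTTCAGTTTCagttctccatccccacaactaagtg
Cxcl3, chr5:90786003-90786062, plus strand: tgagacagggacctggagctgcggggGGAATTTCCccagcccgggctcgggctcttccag
Nr4a2, chr2:57124095-57124154, minus strand: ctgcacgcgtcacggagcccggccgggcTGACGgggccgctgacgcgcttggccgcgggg

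A promoter of 250 bases before and 50 after the start was held for 15563 of the tested genes. Of these, 7.93% carried the interferon element on either strand. The share was 16.3% among 196 antagonised genes below additivity and 21.2% among 33 sign reversals below additivity. It was 8.39% among 143 antagonised genes above additivity and 8.64% among 81 synergistic genes above additivity. The half-site of the cyclic AMP element was in 25.4% of all promoters, 23.0% of those of antagonised genes below additivity and 30.8% of those above. Among sign reversals the half-site was in 33.3% of promoters below additivity and 26.3% above. The kappaB element was in 1.32% of all promoters, in 1 of 81 synergistic genes above additivity (Cxcl3, 1.23%), in 0 of 143 antagonised genes above and in 3.06% of antagonised genes below. A match of these letters is a description of the sequence, not a site of binding.

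Interaction values passed limma's test with litter block, at a Benjamini-Hochberg adjusted p under 0.05, in 677 genes, or 3.4% of those tested. Of these, 344 lay above additivity (1.73%) and 333 below (1.67%). Differences of at least 1 log2 unit, which is 2-fold, were found in 23 genes above and 38 below. At an unadjusted p under 0.05 there were 2566 genes. For comparison, 2683 genes (13.5%) passed for AE1-329 in the presence of Aβ42, 2520 (12.6%) for AE1-329 without it, 4998 (25.1%) for Aβ42 in the presence of AE1-329, 5697 (28.6%) for Aβ42 without it and 4772 (23.9%) for both agents against vehicle.

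Vehicle replicate 1 stood apart from the other arrays. Its weight was 0.166 when limma estimated the quality of each array, against 0.495 to 2.19 for the others. The median SD of a gene was 0.109 log2 units among the vehicle arrays, and 0.066, 0.063 and 0.065 with both agents, Aβ42 alone and AE1-329 alone. Without vehicle replicate 1 the counts were 520 genes above and 421 below additivity. Leaving out another array gave 191 to 225 genes above when it was replicate 1, 2 or 3 with both agents (213, 198 and 200), replicate 1 or 3 with Aβ42 alone (215 and 225) or replicate 2 or 3 with AE1-329 alone (191 and 212). The count below was 213 without replicate 2 and 210 without replicate 3 with both agents. A fit without the litter block called 206 genes above and 183 below, all of them among the 677. In each of 22 other settings, all of the 677 genes that were measured kept their direction. All 677 had the same sign in the 3 litters, so leaving out a litter could not reverse it. Fits without the block or with all probe sets tested together kept the interaction values themselves, so they could not reverse it either.

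The 677 genes were divided by rule into 4 classes. Antagonism, in which both agents together moved a gene less than the sum of the single effects or to the other side of vehicle, held 441 genes (65.1%), of which 188 were above and 253 below additivity. Synergy, in which the agents together moved a gene further than either alone and further than their sum, held 126 genes (18.6%), 98 above and 28 below. Sign reversal, in which an agent's effect passed in both directions depending on the presence of the other, held 88 genes, 46 above and 42 below. The remaining 22 genes (3.25%) had single effects in opposite directions that opposed each other less when combined. Interaction and single effects share the vehicle arrays and the arrays of each agent alone. An error in any of these group means moves the interaction and the single effects that use that mean in opposite directions. By arithmetic this leans genes to antagonism. The effects of AE1-329 with and without Aβ42 share no array. On the linear scale, where amounts and not folds add, 665 of the 677 (98.2%) had the same sign of interaction, against 95.8% of all genes.

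**Figure D1:**
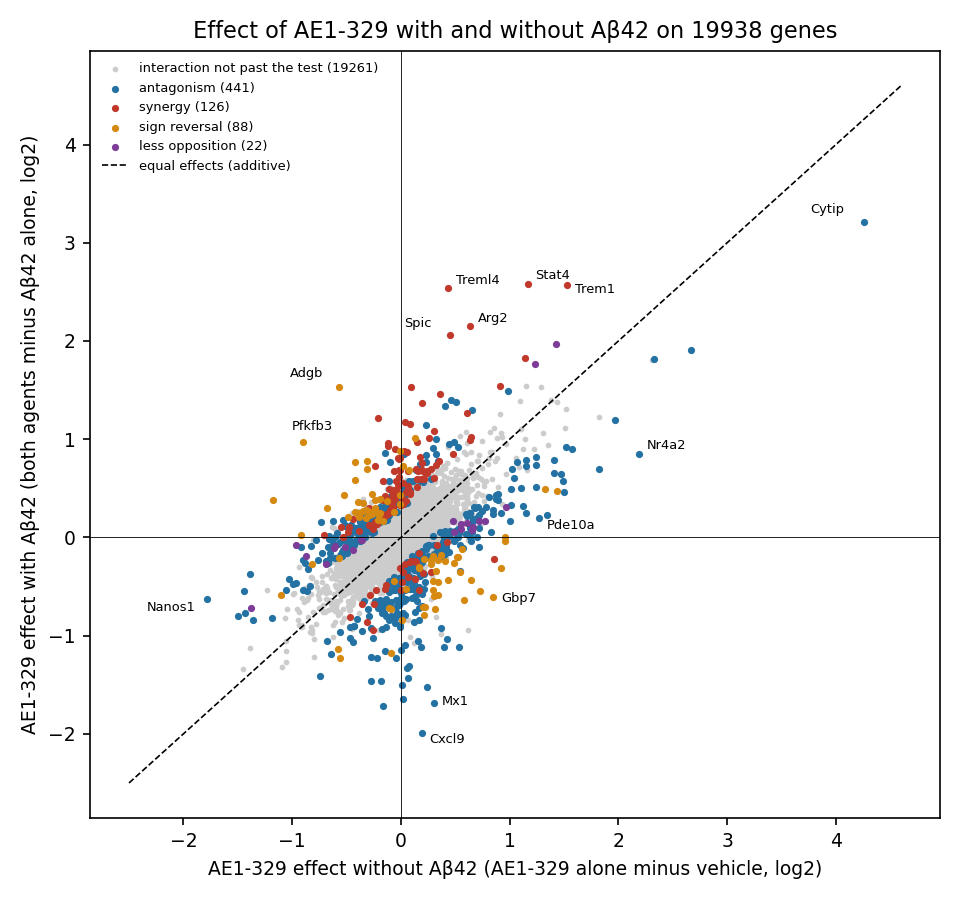
Effect of AE1-329 on each of 19938 genes with Aβ42 (vertical axis, both agents minus Aβ42 alone, log2) against its effect without Aβ42 (horizontal axis, AE1-329 alone minus vehicle, log2), coloured by class. Additive genes lie on the dashed line, the synergistic Treml4, Stat4, Trem1 and Arg2 above it, and Cytip, Nr4a2, Mx1 and Cxcl9 below it.

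The highest interaction among the synergistic genes was that of Treml4, a TREM-like receptor of macrophages. Treml4 measured 10.08, 10.26 and 10.31 log2 units in the 3 litters with both agents, 7.82, 7.54 and 7.70 with Aβ42 alone, 7.15, 7.17 and 7.27 with AE1-329 alone and 6.30, 7.00 and 6.98 with vehicle. The arrays with both agents stood above all others, and vehicle replicate 1 was the lowest. Both agents together raised Treml4 11.0-fold over vehicle, where the single effects multiplied would have given 2.57-fold, an interaction of 2.10 ± 0.19 log2 units (SE, n = 3 litters; adjusted p = 0.000107). AE1-329 alone did not pass for Treml4 (0.44, adjusted p = 0.0569), and Aβ42 alone did (0.92).

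Arg2, the mitochondrial arginase, measured 11.50, 11.37 and 11.41 with both agents, 9.32, 9.35 and 9.17 with Aβ42 alone, 9.96, 9.75 and 10.07 with AE1-329 alone and 9.49, 9.21 and 9.18 with vehicle. Aβ42 alone did not pass (-0.01, adjusted p = 0.934), AE1-329 alone raised it 1.56-fold, and AE1-329 raised it 4.43-fold in the presence of Aβ42. The interaction of Arg2 was 1.51 ± 0.12 (adjusted p = 4.58e-05). Slc7a2, a transporter that brings arginine into the cell, had 9.31, 9.36 and 9.40 with both agents against 8.11, 8.15 and 8.16 with Aβ42, 6.87, 6.73 and 6.82 with AE1-329 and 7.00, 7.16 and 6.89 with vehicle. For Slc7a2 AE1-329 alone did not pass (-0.21, adjusted p = 0.0748), and in the presence of Aβ42 it added 1.22.

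Stat4, which carries signals of interleukin-12 and type I interferon, measured 8.0, 8.03 and 8.25 with both agents, 5.50, 5.64 and 5.41 with Aβ42 alone, 6.25, 6.51 and 6.52 with AE1-329 alone and 5.23, 5.27 and 5.27 with vehicle. The groups did not overlap, and the interaction was 1.41 ± 0.11 (adjusted p = 4.58e-05). Spic, which directs the development of iron-recycling macrophages, reached 27.3-fold over vehicle with both agents, where the product of the single effects was 8.96-fold (interaction 1.60 ± 0.18, adjusted p = 0.000484). Tarm1, an activating receptor of myeloid cells, rose by 1.53 with AE1-329 in the presence of Aβ42 and had a value of 0.10 (adjusted p = 0.654) without it.

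Among the 18 TREM and C-type lectin receptor genes measured, 3 were above additivity (1.73% of all genes), all of them TREM family members and all synergistic, and 4 were below (1.67% of all genes), all of them C-type lectins or the lectin-like Olr1. Trem1, which amplifies inflammatory signals through DAP12, had 9.02, 9.07 and 9.36 with both agents, 6.49, 6.62 and 6.64 with Aβ42, 7.29, 7.43 and 7.84 with AE1-329 and 6.09, 5.87 and 6.01 with vehicle, and its interaction was 1.04 ± 0.14 (adjusted p = 0.00139). Trem3 did not pass for either agent alone (0.20 and 0.18 with AE1-329 and Aβ42, adjusted p = 0.0620 and 0.0527) and rose 1.55 with both. Trem1, Trem3 and Treml4 are paralogs on chromosome 17, each measured by a probe set that names no other gene.

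Clec4e, known as Mincle, and Olr1, a receptor of oxidised lipoprotein, were below additivity, with interactions of -0.76 and -1.28. Clec4e rose with AE1-329 both with Aβ42 (0.65) and without it (1.41), on top of an Aβ42 effect of 5.98. Its levels with both agents, 12.54, 12.51 and 12.56, lay near the upper end of all deposited values, 13.95. Whether the range of the arrays limited them was not tested.

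Several secreted or signalling genes also rose further with both agents than with their sum. Il1rn, the antagonist of the interleukin-1 receptor, had 10.48, 10.66 and 10.71 with both agents against 9.62, 9.80 and 9.99 with Aβ42, 8.73, 9.01 and 9.20 with AE1-329 and 8.95, 9.02 and 9.04 with vehicle. AE1-329 moved it by 0.81 with Aβ42 and by -0.02 (adjusted p = 0.893) without, an interaction of 0.84 ± 0.09 (adjusted p = 0.000484). The neutrophil chemokine Cxcl3 had an interaction of 1.08 ± 0.20 (adjusted p = 0.0120), whose p was 0.0514 without replicate 3 of the group with both agents. The adjusted p of Cxcl3 was 0.121 without litter 1, 0.0797 without litter 2 and 0.0753 with all probe sets tested. Hif1a, the oxygen-regulated transcription factor, was raised by AE1-329 with Aβ42 (0.61) and had -0.01 (adjusted p = 0.927) without it.

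By kind, 41 of the 126 synergistic genes passed for neither agent alone, 44 for Aβ42 alone, 8 for AE1-329 alone and 33 for both, of which 13 moved in 1 direction and 20 in opposite directions. Synergy below additivity, with 28 genes, included Sesn1, a stress-induced sestrin. Sesn1 had 8.50, 8.85 and 8.83 with both agents, 9.55, 9.71 and 9.74 with Aβ42, 10.56, 10.57 and 10.54 with AE1-329 and 10.86, 10.73 and 10.84 with vehicle. Sesn1 fell by 2.09 with both agents and fell by 1.14 with Aβ42 alone. Cmbl, a hydrolase, fell by 1.04 with both agents although AE1-329 alone raised it by 0.86, and the membrane protein Tspan33, for which neither agent alone passed, fell by 0.65.

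**Figure D2:**
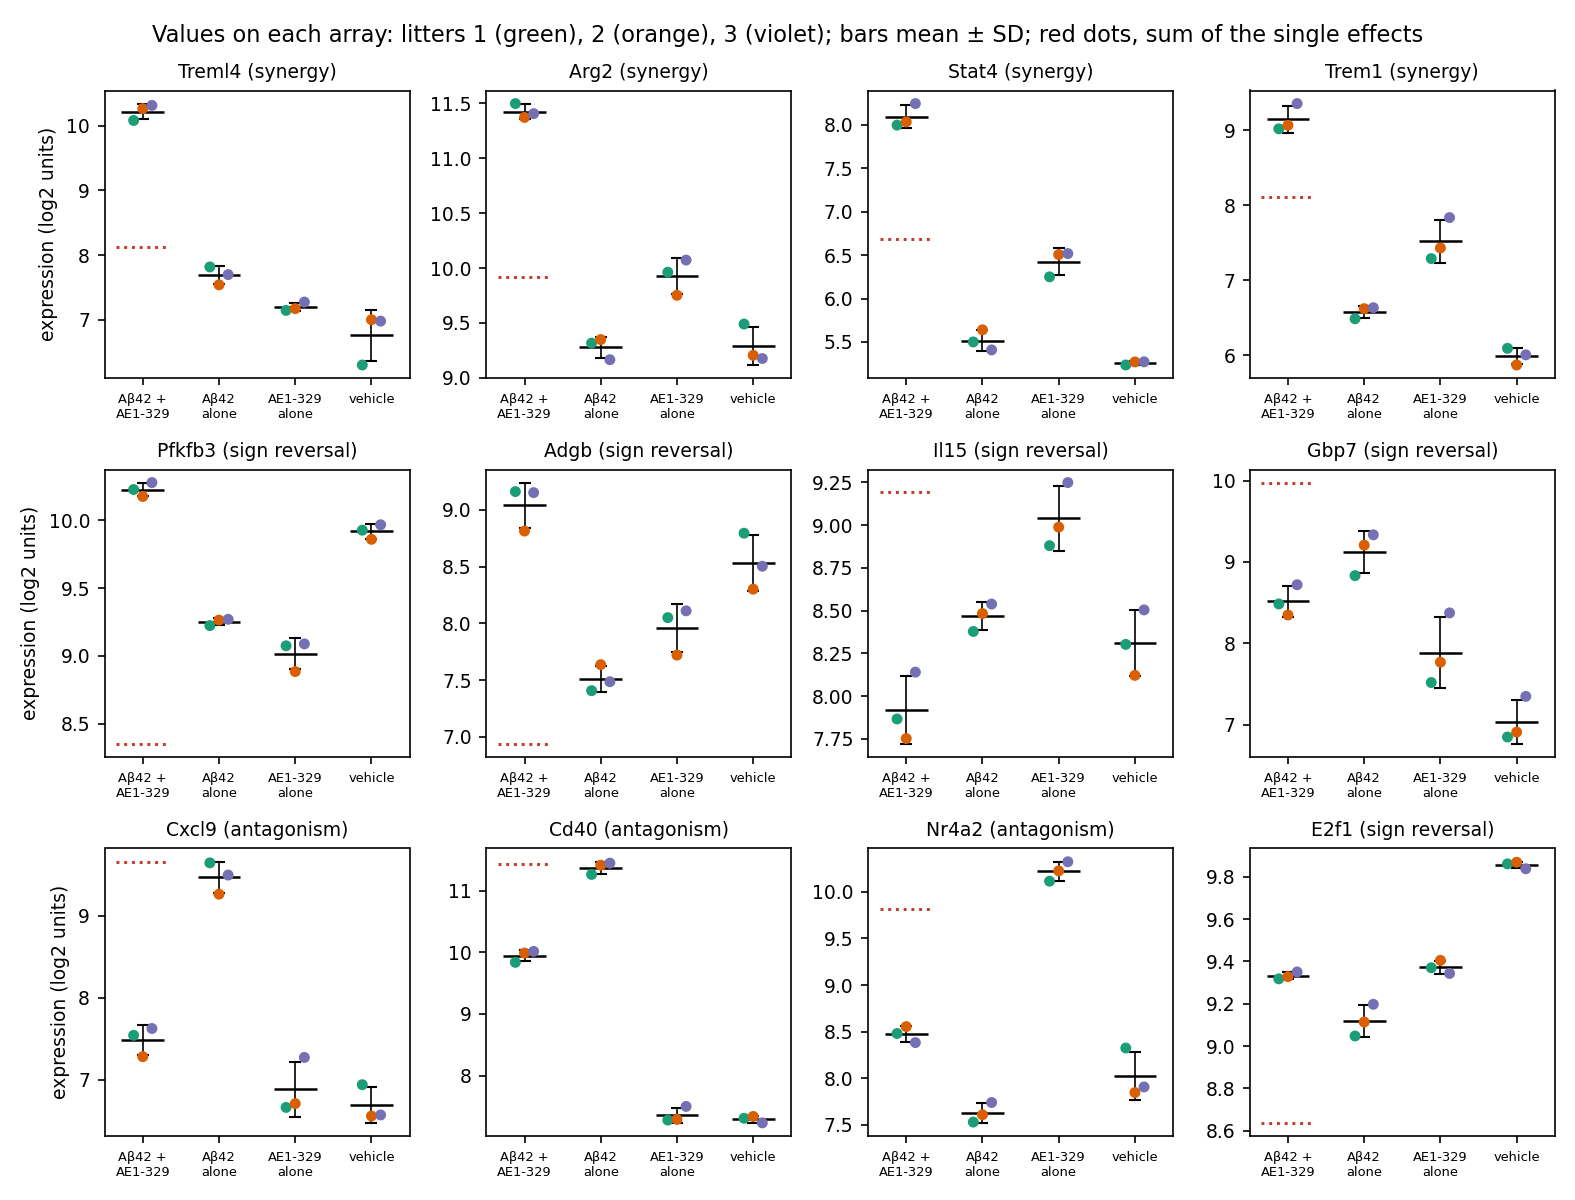
Expression (log2 units, vertical axes of different range) of 12 genes on each array, with both agents, Aβ42 alone, AE1-329 alone and vehicle from left to right. Points are litters, bars are means ± SD (n = 3), and the red dotted line is the additive level, above which lie Treml4, Arg2, Stat4, Trem1, Pfkfb3, Adgb and E2f1 with both agents and below which lie the other 5.

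Among the sign reversals was Pfkfb3, the enzyme that makes the glycolytic activator fructose 2,6-bisphosphate. Pfkfb3 measured 10.23, 10.17 and 10.28 with both agents, 9.22, 9.26 and 9.27 with Aβ42 alone, 9.07, 8.88 and 9.09 with AE1-329 alone and 9.93, 9.86 and 9.97 with vehicle. Each agent alone lowered it, Aβ42 by 0.66 and AE1-329 by 0.90, and each raised it in the presence of the other, by 1.21 and 0.97. Both together stood 0.31 above vehicle (adjusted p = 0.00103). The interaction was 1.87 ± 0.08 (adjusted p = 4.92e-07), with 1.85, 1.88 and 1.88 in the litters.

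Adgb, the globin androglobin, followed the same pattern, with 9.16, 8.81 and 9.15 under both agents, 7.41, 7.64 and 7.49 under Aβ42, 8.05, 7.72 and 8.11 under AE1-329 and 8.79, 8.30 and 8.50 under vehicle. Its interaction was 2.10 ± 0.16 (adjusted p = 4.58e-05). Both effects reversed in 7 genes in all, 5 above additivity and 2 below. In Bnip3, a mitophagy receptor induced by low oxygen, the Aβ42 effect reversed, at 0.43 with AE1-329 against -0.45 without it.

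AE1-329 reversed its effect in 61 genes, of which 34 were lower with AE1-329 alone and higher in the presence of Aβ42, and 27 the other way round. The effect of Aβ42 reversed in 34 genes, 17 in each direction. Leaving out vehicle replicate 1 gave 58 and 43 reversals of the AE1-329 effect. The first kind counted 21, 17 and 19 without replicates 1, 2 and 3 of both agents, 17 and 20 without replicates 1 and 3 of Aβ42 alone and 22, 18 and 19 without replicates 1, 2 and 3 of AE1-329 alone. The second kind counted 16 and 13 without replicates 2 and 3 of both agents, 17 without replicate 1 or 3 of Aβ42 alone and 17 and 14 without replicates 2 and 3 of AE1-329 alone. A fit without the litter block gave 22 and 13, and one with all probe sets tested gave 22 and 16. Without litters 1, 2 and 3 the first kind counted 24, 12 and 3, and the second kind 21, 7 and 6.

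Genes that AE1-329 raised alone and lowered in the presence of Aβ42 included regulators of the interferon response. Il15, a cytokine for lymphocytes, had 7.87, 7.75 and 8.14 with both agents, 8.38, 8.48 and 8.54 with Aβ42, 8.88, 8.99 and 9.25 with AE1-329 and 8.30, 8.12 and 8.50 with vehicle. AE1-329 moved Il15 by -0.55 with Aβ42 and by 0.73 without it, an interaction of -1.28 ± 0.10 (adjusted p = 4.58e-05). Trim25, the ubiquitin ligase of the RNA sensor RIG-I, and Ddx58, which encodes RIG-I itself, had interactions of -1.23 and -1.04. For Trim25 the effect of AE1-329 was -0.31 with and 0.92 without Aβ42, and for Ddx58 it was -0.73 and 0.32.

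Gbp7, an interferon-induced GTPase, had 8.48, 8.35 and 8.72 with both agents, 8.83, 9.21 and 9.33 with Aβ42, 7.52, 7.77 and 8.37 with AE1-329 and 6.85, 6.91 and 7.35 with vehicle. Within each litter AE1-329 lowered it with Aβ42 and raised it without. Irf1, a transcription factor of interferon genes, fell by 0.71 with AE1-329 in the presence of Aβ42 and rose by 0.20 without it (adjusted p = 0.0499). Irf7, the master factor of type I interferon, had an interaction of -1.22 ± 0.24 (adjusted p = 0.0159). Its adjusted p was 0.292 without the litter block, 0.168 without litter 2 and 0.0935 with all probe sets tested. It was 0.0606 without replicate 2 and 0.0648 without replicate 3 of both agents, and 0.0541 without replicate 2 of AE1-329 alone. The NF-kB subunit Rel and the dendritic cell marker Cd83 reversed in the same direction, with -0.43 and -0.44 in the presence of Aβ42 against 0.43 and 0.30 in its absence.

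Reversal in the other direction was seen in Radx, a replication fork protein, and Serpinb6b, a protease inhibitor. AE1-329 moved Radx by 0.38 with Aβ42 and by -1.18 without it. Serpinb6b rose by 0.77 with AE1-329 in the presence of Aβ42 and fell by 0.42 in its absence. The genes just inside the threshold were Jmjd1c (0.38) and Ppp1r9a (0.43), and those just outside were Gmeb2 (-0.46) and Tgif1 (0.28).

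Of 29 type I interferon-stimulated genes measured, 25 were below additivity and 0 above, where 1.67% of all genes were below, and all 29 had negative values at a median of -0.89. Aβ42 alone raised all 29 (12.1% of all genes rose), and AE1-329 lowered 27 of them in the presence of Aβ42, where 6.05% of all genes fell. In its absence AE1-329 lowered 0 and raised 5, where 6.06% of all genes rose. The median effect of AE1-329 was -0.69 with Aβ42 and 0.12 without it, against -0.02 and -0.01 over all genes. By class, 21 of the 25 were antagonised and 4 were sign reversals. The count was 6 without the litter block, 17, 13 and 16 without litters 1, 2 and 3, 16 with all probe sets tested and 18 to 24 with single arrays left out.

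Cxcl9, a chemokine for T cells induced by interferon-gamma, measured 7.54, 7.28 and 7.62 with both agents, 9.65, 9.27 and 9.50 with Aβ42 alone, 6.66, 6.71 and 7.27 with AE1-329 alone and 6.94, 6.55 and 6.57 with vehicle. The arrays with Aβ42 alone stood above all others, and those of AE1-329 alone overlapped vehicle. Aβ42 raised Cxcl9 6.89-fold without AE1-329 and 1.52-fold with it, an interaction of -2.18 ± 0.19 (adjusted p = 7.37e-05). Mx1, an antiviral GTPase, had 6.84, 6.72 and 7.76 with both agents, 8.46, 8.77 and 9.13 with Aβ42, 5.80, 6.07 and 7.35 with AE1-329 and 5.69, 6.08 and 6.53 with vehicle. Litter 3 of Mx1 was the highest in every group, and the interaction of -1.99 ± 0.22 (adjusted p = 0.00048) missed the threshold without the litter block (0.0894).

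Ifit1, Ifit2, Cmpk2 and Ifi205, further interferon-induced genes, had values of -1.65, -1.67, -1.51 and -1.46 with wide errors (SE 0.40, 0.41, 0.37 and 0.35). In Ifit1 litter 3 reached 9.85 with AE1-329 alone, against 7.58 and 8.06 in the other litters. Their adjusted p of 0.0462 to 0.0476 rose above 0.05 when certain single arrays were left out, 7 for Ifit1, 9 for Ifit2, 7 for Cmpk2 and 10 for Ifi205, among them every array with both agents and replicates 1 and 2 of Aβ42 alone. By contrast Mx2 (-1.56), the RNA sensor Ifih1 (-0.99), the ubiquitin ligase Herc6 (-0.88) and Xaf1 (-0.90) passed whichever single array was left out. Xaf1, like Mx1, missed the threshold without the litter block (adjusted p = 0.0710).

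In the list of interferon-gamma and GTPase genes, 7 of 12 members were below additivity (1.67% of all genes) and 0 above, with a median of -0.84. The immunity-related GTPase Irgm1 was raised 1.28 by Aβ42 alone and 0.26 (adjusted p = 0.132) in the presence of AE1-329. The count for this list was 4 without replicate 1 or 3 of both agents, replicate 2 of Aβ42 alone, replicate 1 of AE1-329 alone or replicate 3 of vehicle, 4 without litter 1 or 2, 4 with all probe sets tested, and 3 without litter 3 or without litter block. Apart from interferon genes, Cd40, a costimulatory receptor, had 9.84, 9.99 and 10.02 with both agents, 11.26, 11.41 and 11.45 with Aβ42, 7.28, 7.29 and 7.50 with AE1-329 and 7.31, 7.34 and 7.23 with vehicle. AE1-329 alone did not pass for Cd40 (0.06, adjusted p = 0.647), and in the presence of Aβ42 the gene fell by 1.43, an interaction of -1.49 ± 0.09 (adjusted p = 2.05e-05).

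The chemokine Ccl12 (-1.19) and the cytokines Il18 (-1.21) and Il27 (-0.88) behaved alike in that Aβ42 raised each and AE1-329 lowered each in its presence. For Il18 both agents together did not pass against vehicle (-0.01, adjusted p = 0.977), where Aβ42 alone had raised it by 1.04. Adamts4, a protease that cuts aggrecan, had an interaction of -1.76 ± 0.16 (adjusted p = 9.56e-05), with 9.04, 8.73 and 8.67 under both agents, 10.37, 10.31 and 10.33 under Aβ42, 7.12, 7.19 and 6.94 under AE1-329 and 6.92, 7.14 and 6.47 under vehicle. In 128 antagonised genes Aβ42 alone raised the level while AE1-329 alone did not pass, the most frequent kind of antagonism.

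**Figure D3:**
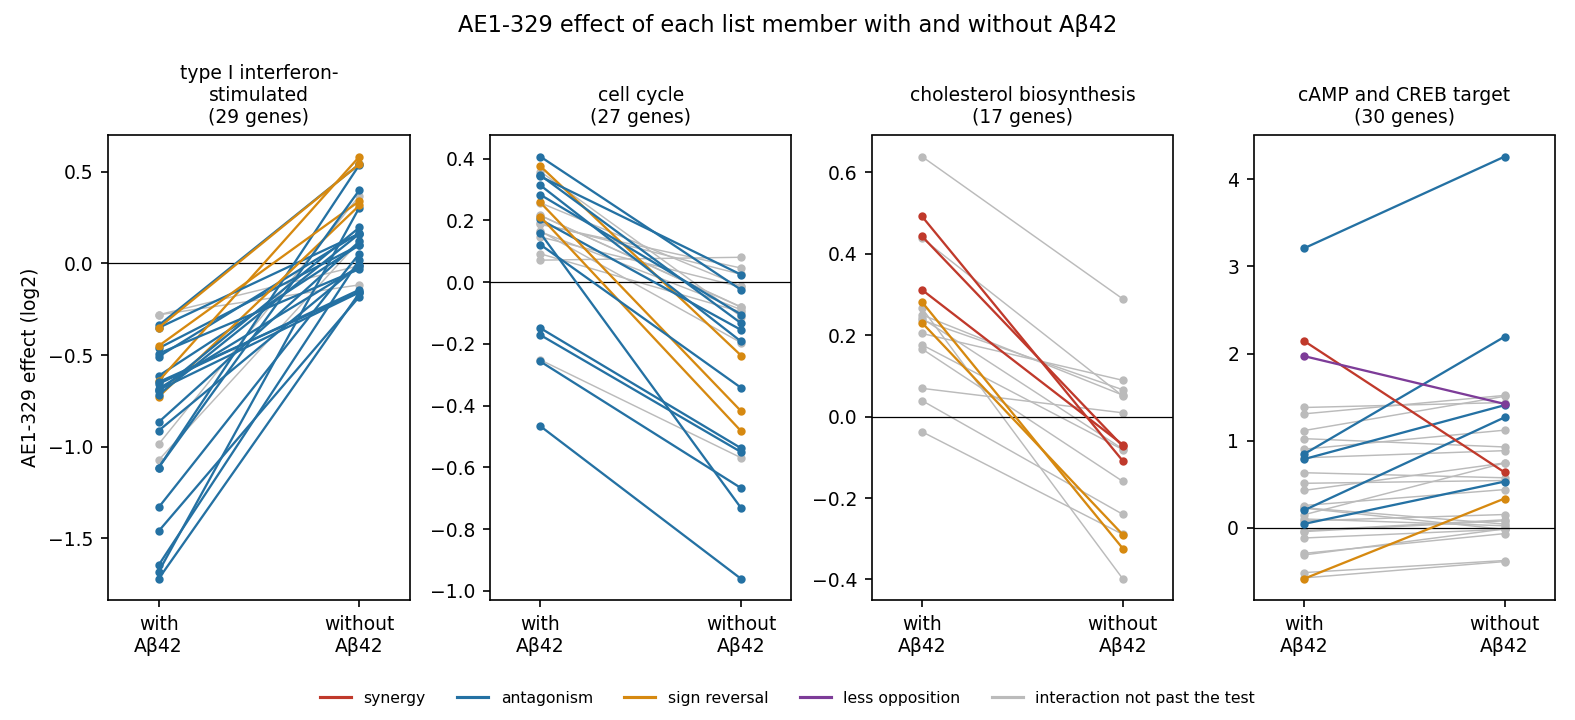
Effect of AE1-329 (log2, vertical axes of different range) on each member of 4 gene lists, with Aβ42 on the left and without it on the right of each panel, 1 line a gene, coloured by class. Lines of the 29 interferon-stimulated genes run upward to the right, and those of 26 of 27 cell cycle genes and all 17 cholesterol genes downward.

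Of 30 cyclic AMP and CREB target genes measured, 6 were below additivity (1.67% of all genes) and 2 above (1.73%), with 3 below without litter 2 and 4 without litter 3. AE1-329 raised 16 of the 30 in the presence of Aβ42 (7.41% of all genes rose) and 19 in its absence (6.06% of all genes rose), and the difference between these counts was not tested. Nr4a2, an immediate-early nuclear receptor and classical CREB target, measured 8.48, 8.55 and 8.38 with both agents, 7.53, 7.61 and 7.74 with Aβ42, 10.11, 10.22 and 10.32 with AE1-329 and 8.33, 7.85 and 7.91 with vehicle. AE1-329 raised it 1.80-fold with Aβ42 and 4.58-fold without (interaction -1.35 ± 0.16, adjusted p = 0.000649).

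Pde10a, a phosphodiesterase that degrades cyclic nucleotides, had 7.10, 7.04 and 7.12 with both agents, 6.88, 6.90 and 6.87 with Aβ42, 8.03, 7.98 and 8.07 with AE1-329 and 6.65, 6.84 and 6.79 with vehicle. The response of Pde10a to AE1-329 was 0.20 with Aβ42 and 1.27 without it. Cytip, which regulates adhesion through cytohesin, and the kinase gene Sik1 were named after their values were seen. Cytip had the highest effects of AE1-329 in the plot of the effects with and without Aβ42, 3.21 and 4.26, and an interaction of -1.05 ± 0.14 (adjusted p = 0.0015), and AE1-329 moved Sik1 by 0.05 (adjusted p = 0.712) with Aβ42 and by 0.53 without. Rgs2, an inhibitor of G protein signalling, rose by 0.34 with AE1-329 alone and fell by 0.58 in the presence of Aβ42, which by itself lowered it by 2.52.

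Genes that both agents raised alone formed a further kind, with 37 antagonised genes. Il1b, the interleukin-1 beta gene, had 12.74, 12.57 and 12.68 with both agents, 12.44, 12.46 and 12.39 with Aβ42, 7.73, 7.66 and 8.43 with AE1-329 and 6.76, 6.40 and 6.63 with vehicle. AE1-329 raised it 2.54-fold without Aβ42 and did not pass with it (0.23, adjusted p = 0.385), an interaction of -1.12 ± 0.20 (adjusted p = 0.00864). The interaction of Il1b missed the threshold with all probe sets tested (adjusted p = 0.0594) and without litter 2 (0.111). As with Clec4e, the levels of Il1b in both groups with Aβ42 lay near the upper end of all deposited values, 13.95. Whether the range of the arrays limited them was not tested. Tgm2, a transglutaminase, and Cd14, the lipopolysaccharide co-receptor, likewise rose with either agent, and both together reached 3.35 and 1.47 above vehicle. Their interactions were -0.77 and -0.81. That of Tgm2 missed the threshold without the litter block (adjusted p = 0.0769) and without litter 3 (0.140).

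Above additivity, 88 antagonised genes fell with either agent alone and fell by less than the sum with both. Nanos1, an RNA-binding repressor, had 8.49, 8.64 and 8.51 with both agents, 9.16, 9.16 and 9.21 with Aβ42, 9.0, 8.89 and 9.05 with AE1-329 and 10.80, 10.66 and 10.84 with vehicle. The interaction of Nanos1 was 1.16 ± 0.09 (adjusted p = 4.58e-05), and the GTPase-activating Arap2 (1.02) and the plasminogen activator Plau (0.70) had the same form. Plau missed the threshold without the litter block (adjusted p = 0.158). Jun, a subunit of AP-1, fell by 1.06 with Aβ42 alone and was at -0.05 (adjusted p = 0.679) with Aβ42 in the presence of AE1-329. Of 22 immediate-early and AP-1 genes measured, Jun was the 1 member above additivity (1.73% of all genes), and 5 were below (1.67%). The median of this list was -0.12. Its count below was 1 without the litter block, 0 with all probe sets tested and 0 without litter 2 or 3. St8sia4, a polysialyltransferase, fell by 2.47 with Aβ42 alone and by 1.54 in the presence of AE1-329.

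Among the 22 genes with less opposition, Tnfaip3, which encodes the NF-kB inhibitor A20, had 11.40, 11.31 and 11.29 with both agents, 11.47, 11.36 and 11.40 with Aβ42, 8.50, 8.46 and 8.55 with AE1-329 and 9.40, 9.51 and 9.50 with vehicle. AE1-329 lowered it by 0.97 without Aβ42 and did not pass with it (-0.08, adjusted p = 0.498), an interaction of 0.89 ± 0.08 (adjusted p = 0.000107). The adaptor Sla (0.68) and the Myc antagonist Mxi1 (0.55) were above additivity in this class. Kctd12b (-0.66) was below it.

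Of 27 cell cycle genes measured, 15 were above additivity, 0 were below and 12 did not pass, where 1.73% of all genes were above, and the median was 0.38. In the presence of Aβ42, AE1-329 raised 13 of the 27 (7.41% of all genes rose) and lowered 2. AE1-329 alone raised 0 and lowered 10 (6.58% of all genes fell), and Aβ42 alone lowered 26 (16.5% of all genes fell). E2f1, a transcription factor of S phase entry, had 9.32, 9.33 and 9.35 with both agents, 9.05, 9.11 and 9.20 with Aβ42, 9.37, 9.40 and 9.34 with AE1-329 and 9.86, 9.87 and 9.84 with vehicle. Its AE1-329 effect was 0.21 with Aβ42 and -0.48 without, a sign reversal (interaction 0.69 ± 0.07, adjusted p = 0.000295).

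Mki67, the proliferation antigen Ki-67, and Mcm4, a subunit of the replicative helicase, reversed in the same way, at 0.38 and 0.26 with Aβ42 against -0.24 and -0.42 without. The cyclin Ccne2 was antagonised, with a fall of 1.18 under Aβ42 alone and of 0.29 under Aβ42 in the presence of AE1-329. Fewer members passed without replicate 2 (6) or 3 (8) of both agents, any replicate of Aβ42 alone (8 each), replicate 2 (6) or 3 (7) of AE1-329 alone or replicate 3 of vehicle (8). Without litter 2 the count was 2 and without litter 3 it was 1, against 5 with all probe sets tested and 4 without the litter block. A change in the number of dividing cells and a change in transcript per cell cannot be told apart in these bulk samples.

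Cholesterol biosynthesis genes had positive values in all 17 measured members, with a median of 0.33, and 5 passed. Over all genes 1.73% passed above additivity, and 10075 of 19938 had negative values. Hsd17b7 had 10.45, 10.39 and 10.41 with both agents, 10.05, 9.91 and 9.82 with Aβ42, 9.82, 9.67 and 9.67 with AE1-329 and 9.81, 9.81 and 9.86 with vehicle, and the arrays with both agents stood above the rest. Hmgcs1, which makes the precursor of mevalonate, rose by 0.44 with AE1-329 in the presence of Aβ42 and had -0.07 (adjusted p = 0.511) without it. Sqle and Cyp51 reversed, with AE1-329 effects of 0.23 and 0.28 with Aβ42 and of -0.29 and -0.32 without. Cyp51 missed the threshold without replicate 2 or 3 of both agents (adjusted p = 0.0516 and 0.0518). The list's count was 0 without litter 3, 1 without litter 2, 8 without litter 1, 11 without vehicle replicate 1, and 3 without replicate 2 or 3 of both agents or with all probe sets tested.

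Of 17 prostaglandin pathway genes, 5 were above additivity (1.73% of all genes) and 0 below, with 1 above without litter 2 and 2 without litter 3. Ptger4, which encodes EP4 itself, had 8.44, 8.57 and 8.54 with both agents, 9.03, 8.99 and 9.14 with Aβ42, 8.20, 8.08 and 8.05 with AE1-329 and 9.26, 9.04 and 9.19 with vehicle. AE1-329 lowered Ptger4 by 0.54 with Aβ42 and by 1.06 without, an interaction of 0.52 ± 0.10 (adjusted p = 0.0122). Ptger2, the other receptor coupled to the stimulatory G protein, rose by 0.57 with AE1-329 in the presence of Aβ42, which alone lowered it by 0.56.

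Ptges, the inducible prostaglandin E synthase, was the synergistic member, with 12.67, 12.57 and 12.62 with both agents, 11.60, 11.64 and 11.69 with Aβ42, 8.08, 7.91 and 7.94 with AE1-329 and 8.15, 7.71 and 7.62 with vehicle. Its AE1-329 effect was 0.97 with Aβ42 and 0.15 (adjusted p = 0.376) without. Pla2g4a, the phospholipase that releases arachidonate, and Hpgds, the prostaglandin D synthase of haematopoietic cells, were lowered by AE1-329 alone by 0.85 and 0.61, and in the presence of Aβ42 their values were -0.32 and 0.00 (adjusted p = 0.00191 and 0.998). Ptgs2, a cyclooxygenase, did not pass the interaction test (-0.68, adjusted p = 0.179).

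The glycolysis and hypoxia list had 4 of 18 members above additivity (1.73% of all genes) and 0 below, with 2 above without litter 2. The 4 were Pfkfb3, Hif1a and Bnip3, described above, and Egln3, an oxygen-sensing hydroxylase that AE1-329 raised by 0.75 with Aβ42. Egln3 missed the threshold without the litter block (adjusted p = 0.0781) and without any 1 litter. The NF-kB target list split evenly, with 4 of 19 above (1.73% of all genes) and 4 below (1.67%), although Aβ42 raised all 19 both with AE1-329 (10.7% of all genes rose) and without it, and both agents raised all 19 over vehicle (10.2% of all genes rose). Cytokine genes had 1 member above and 4 below of 22, chemokine genes 2 and 3 of 22, and 0 of 9 passed in the list for NADPH oxidase and nitric oxide synthase.

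**Figure D4:**
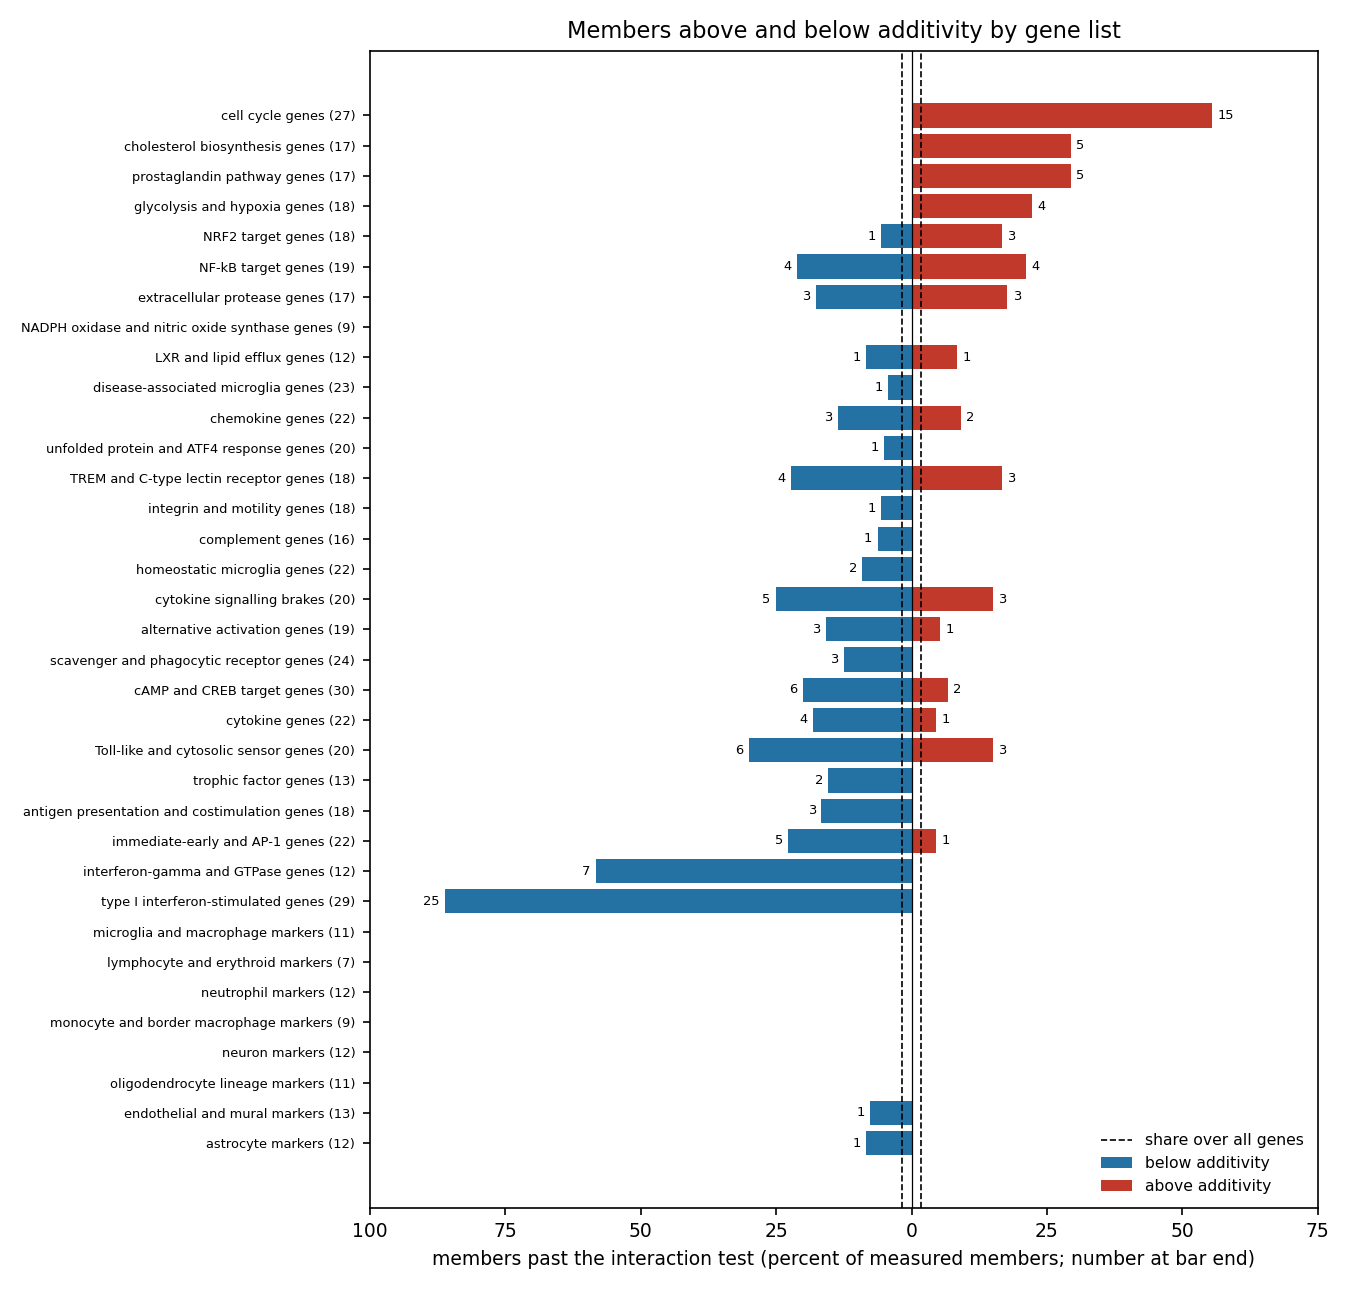
Percent of the measured members of each gene list (number of members in brackets) that passed the interaction test above additivity (red, to the right) and below it (blue, to the left), with the number of genes at the bar end. Dashed lines are the shares over all genes, 1.73% and 1.67%; interferon lists extend furthest below and the cell cycle list furthest above.

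Other genes of the inflammatory response had combined effects that could not be told from additivity. Tnf measured 13.09, 12.97 and 12.92 with both agents, 13.39, 13.36 and 13.40 with Aβ42, 8.76, 8.54 and 8.81 with AE1-329 and 9.33, 9.36 and 9.62 with vehicle, an interaction of 0.34 ± 0.11 (adjusted p = 0.177). Values for Il6 (0.49, adjusted p = 0.145), Il10 (0.24, 0.618), Ccl2 (0.25, 0.382), Nos2 (-0.36, 0.0802) and Cybb (0.00, 0.996) did not pass either. Il6 passed without vehicle replicate 3 (adjusted p = 0.0266) and Nos2 without vehicle replicate 1 (0.0480), with array weights Tnf (0.0187) and Nos2 (0.0405) passed, and after a further quantile normalization Nos2 did (0.0271). A value that did not pass does not show that the effects added.

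The labelled cell type was checked with marker lists. The 11 microglia and macrophage markers averaged 11.00, 11.13, 11.03 and 11.17 log2 units with both agents, Aβ42, AE1-329 and vehicle. Of these 11, 0 passed the interaction test, where 3.4% of all genes passed. Lists for astrocytes, oligodendrocytes, neurons, endothelial cells, monocytes, neutrophils and lymphocytes averaged between 6.22 and 7.45 in the 4 groups. The highest member averaged 11.33 in the endothelial and mural list, 11.05 in the monocyte list and 10.28 in the neutrophil list. It averaged 7.46 to 9.41 in the other lists of this kind. These lists of other cell types held 7 to 13 measured members each. Among all their members 2 passed, both below additivity, where 3.4% of all genes passed in either direction. The 2 were the glutamate transporter Slc1a3 (-0.45) and the VEGF receptor Kdr (-0.64). Slc1a3 missed the threshold without the litter block (adjusted p = 0.256) and without any 1 litter, and Kdr without litter 2 or 3 (0.0732 and 0.166). The part of other cells in the results was not tested. How far a probe set stood above background is not known here, so its low level may be background.

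**Figure D5:**
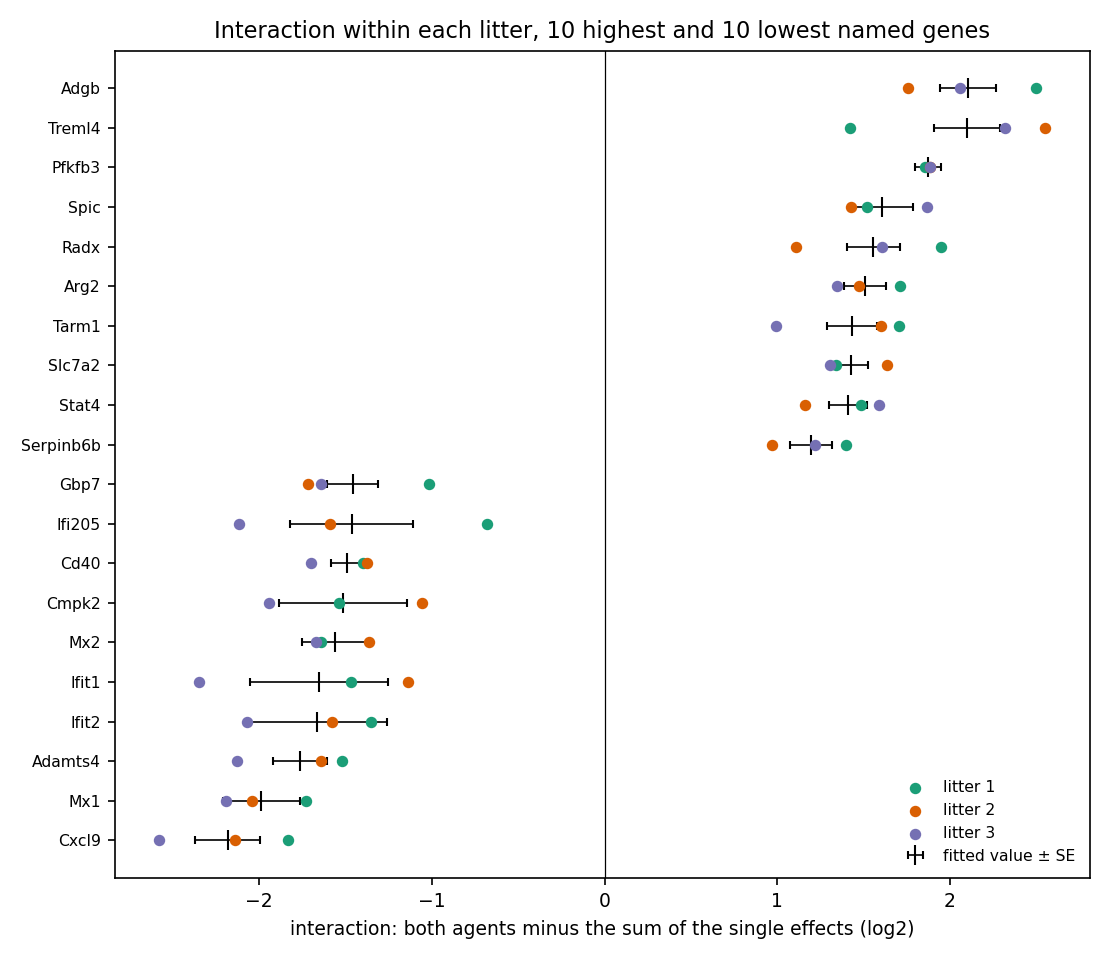
Interaction (log2, horizontal axis) in each litter for the 10 highest and 10 lowest named genes, with the fitted value ± SE in black. All 3 litters of each gene lie on 1 side of 0; Pfkfb3 varies least, and Ifit1, Ifit2, Cmpk2 and Ifi205 have the widest errors.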

How the data were processed

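Log2 expression values of 12 Affymetrix Mouse Gene 1.0 ST arrays were used as deposited by the authors. The submitters' processing notes list RMA and Partek 6.5, without their role; build, filters and litter correction are not stated in any source used here. Of 35556 probe sets, 21789 carried 1 symbol in the platform annotation, 1621 several and 12146 none. The brightest probe set of each gene was kept (999 genes had several), which gave 19938 genes, of which none was filtered out. Symbols were updated through RefSeq where the gene ID matched (21698 probe sets). Values ran from 2.79 to 13.95, and array medians from 6.97 to 7.05. The number of arrays limits the precision.

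The model, fitted across arrays by limma 3.58.1 (R 4.3.3), held the 4 group means and the replicate number as a block (6 residual and 5.60 prior degrees of freedom). Tests are two-sided, with Benjamini-Hochberg adjustment over all genes and a threshold of 0.05. The script was tested on simulated data. The design text names 3 litters as replicates, and same-numbered arrays were taken as a litter: after subtraction of group means, such arrays had an average correlation of 0.33 (0.0044 to 0.54 over 18 pairs, 17 above 0.1) over genes, which are not independent replicates.

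The lists (35, with the cell type markers) and class rules were chosen with earlier results of these data known, and the split of classes into kinds was made after these data were seen. Named were the 10 highest and 10 lowest interactions, the 4 largest of each class and sign, the 4 members of each list with the smallest p, and in every case Ccl2, Cybb, Il10, Il1b, Il6, Irf1, Irf7, Nos2, Ptger2, Ptger4, Ptgs2 and Tnf, of which a part is given. Alternatives were a fit without the block, a restriction to genes brighter than the median gene, averaging over a gene's probe sets, all probe sets, quantile normalization again, a mean-variance trend with robust prior, array weights, and each array or litter left out. Microglia came from CD11b selection, so other cells may remain.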

Additional observations from a re-analysis of the deposited data

Results flagged for a closer look

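Probe sets that carry no gene symbol, or several, were not used for the genes. When all probe sets were tested together with limma, 60 of these 13767 passed the interaction test (0.436%), 27 above and 33 below additivity, with values from -2.54 to 1.67 log2 units. Of the probe sets used for genes, 365 passed in that fit (1.83%). They are given because they lie outside the comparisons above, and their genes were not named here.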

How the results depend on the processing

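In all 22 settings the 677 genes kept their direction where measured, which several settings could not have changed, whereas counts moved. Without the replicate block, 206 genes passed above and 183 below additivity, with 57 sign reversals and 232 antagonised genes. Of 78 named genes that passed, 14 missed the threshold without the block. They were Tspan33, Irf7, Mx1, Ifit1, Ifit2, Cmpk2, Ifi205, Xaf1, Irgm1, Tgm2, Plau, Cyp51, Egln3 and Slc1a3. With all probe sets tested together, 207 passed above, with 285 antagonised, 79 synergistic and 13 of less opposition. Array weights gave 656 above, 734 antagonised, 211 synergistic, 170 sign reversals, 38 of less opposition and 5025 genes for AE1-329 in the presence of Aβ42. Leaving out single arrays or litters gave 64 to 520 genes above and 93 to 421 below, 20 to 155 sign reversals, 33 to 164 synergistic, 100 to 592 antagonised and 3 to 30 of less opposition. It also gave 1108 to 3824 genes for AE1-329 with Aβ42, 1061 to 2862 for AE1-329 without it, 3177 to 6261 for Aβ42 with AE1-329 and 3098 to 5118 for both agents against vehicle. The highest of these counts came without vehicle replicate 1 and the lowest without litter 3 (less opposition, litter 2), where fewer arrays leave fewer degrees of freedom. Single arrays gave 51 to 53 sign reversals without replicate 2 or 3 of both agents or of AE1-329 alone or replicate 1 of Aβ42 alone. They gave 70 to 82 synergistic genes without any replicate of both agents or replicate 2 or 3 of AE1-329 alone, and 260 to 290 antagonised genes without replicate 2 or 3 of either group. AE1-329 with Aβ42 had 1777 and 1727 genes without replicates 2 and 3 of both agents and 1753 without replicate 3 of Aβ42 alone, AE1-329 without Aβ42 1570 to 1637 without any replicate of AE1-329 alone, and less opposition 14 without replicate 3 of both agents. Of the 78 named genes, 7 missed the threshold without some single array and 21 others only without a litter. Cybb, which did not pass, had an interaction of -0.016 with array weights and of -0.057 to 0.059 with arrays or litters left out. Restricting to brighter genes, averaging probe sets, quantile normalization again and a trend with robust prior moved none of these counts by over 1.5 times, although the trend gave 5 TREM and lectin genes above additivity in place of 3 and left Ifit1, Ifit2, Cmpk2 and Ifi205 short of the threshold, as quantile normalization did Cmpk2 and Ifi205. For the other shifts the cause was not tested.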
